A study of Mus musculus with 47 samples.

Results

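The genes described here encode insulin-like growth factor 1 (*Igf1*), its receptor *Igf1r*, the scavenging receptor *Igf2r*, the insulin receptor *Insr* and the binding proteins *Igfbp2* to *Igfbp7*. They were chosen by name, as the ligand, receptors and binding proteins of the IGF axis, and all 10 were among the 17078 genes measured. The libraries came from FVB/N mice, and each held RNA from pooled glands sorted as Lin-CD24+CD29lo (luminal) or Lin-CD24+CD29hi (basal) mammary epithelial cells. The 8 time points were never-pregnant females of 10 weeks (W10), pregnancy days 3.5 and 14.5 (P3.5 and P14.5), lactation days 3 and 10 (L3 and L10), day 2 of involution after weaning at lactation day 10 (Id2), week 4 of involution (Iw4) and never-pregnant females of 4 months (M4), the age-matched control of Iw4. Each condition had 3 libraries, except basal P14.5 and basal L10 with 2 each, which gave 24 luminal and 22 basal libraries with 4398806 to 20023054 recovered reads (median 8518616).

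IGF1 and IGF2 are secreted growth factors that act through IGF1R, a receptor tyrosine kinase closely related to the insulin receptor, whereas IGF2R carries IGF2 to lysosomes. IGF binding proteins hold the ligands in blood and tissue, can block or prolong their action, and are cut by proteases such as PAPP-A. In the mammary gland the axis is known for its part in ductal and alveolar growth and for IGFBP5, which accumulates when milk removal stops.

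*Igfbp2* and *Igfbp5* are neighbouring genes on mouse chromosome 1, yet their cell type patterns differed, whereas *Igfbp4* and *Igfbp7* had the most similar patterns of any pair of these genes. The 250 bases before the annotated start of these 4 genes are shown for that reason (for *Igfbp2*, the first of 2 annotated starts), in the direction of transcription, from the RefSeq promoter table (GRCm38.p6). Capitals mark matches on either strand. The TATA box was searched as the letters TATAAA. The GC box, which SP factors bind, was searched as GGGCGG. The other motifs were the CCAAT box, searched by the letters of its name, and the GAS element of STAT factors, searched as TTCNNNGAA. The windows are chr11:99040994-99041243 (plus strand), chr5:77408046-77408295 (minus strand), chr1:72824230-72824479 (plus strand) and chr1:72874866-72875115 (minus strand).
Igfbp4: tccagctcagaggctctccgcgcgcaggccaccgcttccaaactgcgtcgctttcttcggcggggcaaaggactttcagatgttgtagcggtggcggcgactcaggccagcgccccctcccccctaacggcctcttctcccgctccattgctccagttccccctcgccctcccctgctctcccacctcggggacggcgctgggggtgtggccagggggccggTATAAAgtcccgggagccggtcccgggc
Igfbp7: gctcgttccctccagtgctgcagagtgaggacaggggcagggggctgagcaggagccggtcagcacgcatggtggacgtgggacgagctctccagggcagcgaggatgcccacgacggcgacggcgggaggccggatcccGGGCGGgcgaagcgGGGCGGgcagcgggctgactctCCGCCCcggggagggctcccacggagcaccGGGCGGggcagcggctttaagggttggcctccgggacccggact
Igfbp2: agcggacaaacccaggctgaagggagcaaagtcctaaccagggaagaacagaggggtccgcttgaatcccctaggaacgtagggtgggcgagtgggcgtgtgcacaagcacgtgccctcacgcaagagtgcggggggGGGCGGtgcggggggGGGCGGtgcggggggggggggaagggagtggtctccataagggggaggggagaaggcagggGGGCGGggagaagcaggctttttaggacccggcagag
Igfbp5: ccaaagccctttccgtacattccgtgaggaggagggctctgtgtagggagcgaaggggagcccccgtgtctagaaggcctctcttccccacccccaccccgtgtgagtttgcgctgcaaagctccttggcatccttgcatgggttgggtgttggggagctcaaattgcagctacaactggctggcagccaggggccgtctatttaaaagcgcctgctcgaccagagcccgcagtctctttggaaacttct
The *Igfbp4* window held 1 TATA box, the *Igfbp7* window 4 GC boxes, the *Igfbp2* window 3 GC boxes and the *Igfbp5* window no match. The window of the second *Igfbp2* start, chr1:72825137-72825386, held no match either. Of 32851 RefSeq windows of the same length, 12.4% held TATAAA, 32.7% GGGCGG, 33.8% the CCAAT box and 7.0% TTCNNNGAA. These are matches of letters only, and the expression data do not test them.

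Values are the deposited CPM, read counts scaled by the authors to library sizes that include a scaling factor for each sample. Summed over the genes measured, they came to 675541 to 2909036 CPM per library. In luminal libraries the sums were 801417 to 844369 at W10, 1368134 to 2909036 at L3 and 1451576 to 1695249 at Id2. Differences between time points are on this scale and are not shares of a library's reads. Differences are log2 fold changes of CPM + 1 from limma with their standard error (SE), and a gene was called changed at a fold of at least 2 and an adjusted p under 0.01 (Benjamini-Hochberg over 17078 genes). Adding 1 understates the fold of genes near 0. In sorted bulk cells, fewer cells of a type and less RNA per cell cannot be told apart.

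The lineage antibodies of the sort were directed at CD11b and CD45 (leukocytes), Ly-6G/Ly-6C (myeloid cells), Ter-119 (red cells), CD31 (endothelial cells) and CD140a (PDGFRA, found on fibroblasts), the last listed in the study's methods as an antibody to the human protein, and stained cells were left out. The sort labels were checked against marker genes. The summed CPM of 8 basal markers (*Krt5*, *Krt14*, *Krt17*, *Trp63*, *Acta2*, *Myh11*, *Cnn1*, *Oxtr*) lay between 11379 and 70542 in the 19 basal libraries outside Id2, and between 95.1 and 2573 in the 24 luminal libraries. Basal Id2 stood apart. Its replicates 2 and 6 held 873 and 828 CPM of basal markers, and its replicate 4 held 14412. Replicate 2 also had 9808 CPM of 8 endothelial markers against at most 1048 in the 19 other basal libraries, with *Cdh5* the most abundant. Replicate 6 had 72328 CPM of 8 fibroblast markers against at most 11906, with *Col1a1* the most abundant. All 8 endothelial markers in replicate 2 and all 8 fibroblast markers in replicate 6 were above 3 reads. Comparisons that use basal Id2 are therefore also given with replicate 4 as the only basal Id2 library.

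Levels between genes are compared per kilobase of annotated exon, as CPM per kb averaged over the 8 time points. *Igfbp5* was the most abundant of these genes in both cell types, at 865 CPM per kb in luminal and 789.7 in basal cells. In luminal cells *Igfbp7* (29.7), *Igf2r* (28.7) and *Insr* (12.5) followed, and the other binding proteins and *Igf1* lay between 0.292 and 4.40 CPM per kb. In basal cells *Igfbp7* (608), *Igfbp2* (87.2), *Igfbp3* (66.6) and *Igfbp4* (43.2) followed *Igfbp5*. *Igf1r* was low on this scale in both, at 1.70 CPM per kb in luminal and 6.13 in basal cells. 

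**Figure D1:**
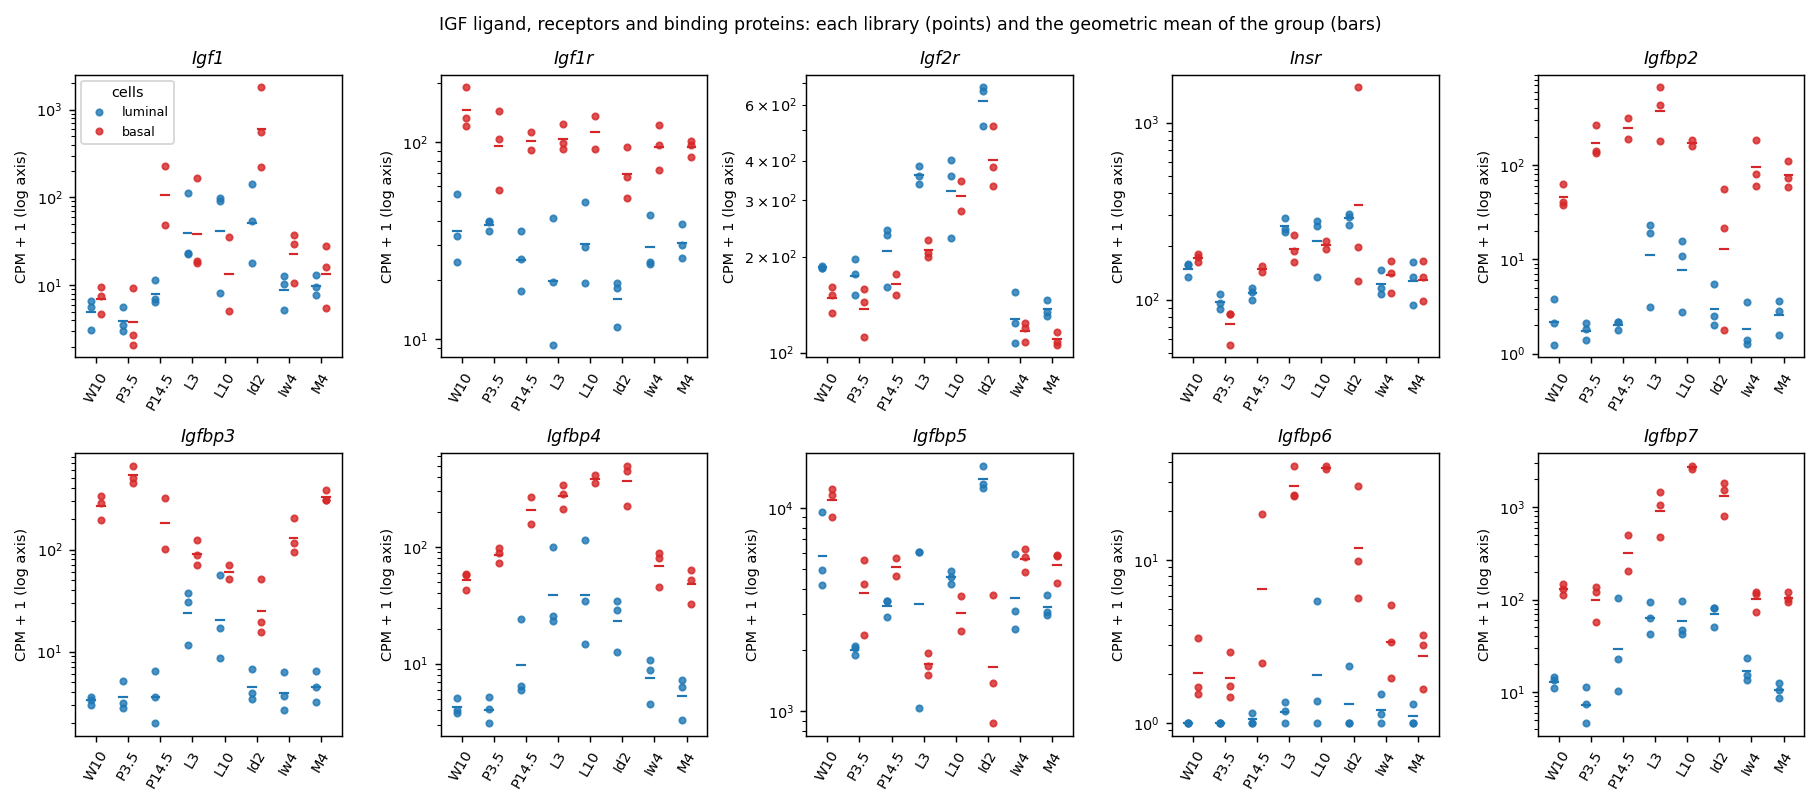
CPM + 1 on a log axis (y) by time point (x) for each of the 10 genes, with 1 point per luminal (blue) or basal (red) library and bars at the geometric mean. *Igfbp2*, *Igfbp3*, *Igfbp4*, *Igfbp6* and *Igfbp7* lay higher in basal cells at most time points, *Igfbp5* was high in both, and the 3 basal Id2 libraries spread widely for *Igf1* and *Insr*.

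Averaged over the 8 time points, 6 of the 10 genes were called higher in basal cells and none higher in luminal cells, where 21.0% of all genes were called (13.6% higher in basal, 7.35% higher in luminal). These were *Igfbp2* (log2 fold change 5.03, SE 0.28, n = 22 basal and 24 luminal libraries, adjusted p = 4.3e-18), *Igfbp3* (4.55, SE 0.19), *Igfbp7* (3.75, SE 0.18), *Igfbp4* (3.62, SE 0.20), *Igfbp6* (2.41, SE 0.20) and *Igf1r* (1.88, SE 0.14). The median over the 10 genes was 2.14, against 0.02 over all genes. Without the Id2 time point the same 6 genes were called, with 21.1% of all genes. *Igf2r*, at -0.36 (SE 0.07, adjusted p = 3e-05), was below the fold required. *Igf1* (0.98, SE 0.33) and *Igfbp5* (-0.10, SE 0.17) were not called, nor was *Insr* (0.02, SE 0.16). The *Igf1* value lay at the edge of both thresholds. It was called without any 1 of 16 libraries, the largest being 1.16 without basal L10 replicate 6. Both edgeR (1.17) and DESeq2 (1.2) called it. For *Igfbp5* the difference was 0.63 to 0.93 at W10, P3.5, P14.5, Iw4 and M4, and -0.98, -0.59 and -3.07 at L3, L10 and Id2, of which limma called Id2 alone and DESeq2 also L3 (-1.39). The Id2 value was -1.89 and not called with basal Id2 replicate 4 alone.

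*Igf1r*, which carries the growth signal of both IGFs, differed between the cell types at every time point without overlap of the libraries. At W10 its luminal libraries had 23.6, 32.4 and 53.5 CPM and its basal libraries 132, 119 and 188. At L3 the luminal libraries had 18.6, 40.3 and 8.42 CPM and the basal libraries 91.2, 98.2 and 122. All 3 basal libraries were above all 3 luminal libraries in both cases. *Igf1r* was the only one of the 10 genes not called for variation over the 8 basal time points. Its basal excess was called at 7 of 8 time points, with log2 fold changes from 1.60 (M4) to 2.40 (L3), and at Id2 it was 2.11, or 2.57 with basal replicate 4 alone. The calls at L3, L10 and Id2 were lost with the spread of the compared groups alone. At P3.5 it was 1.32 (SE 0.39, adjusted p = 0.012). It was called there with the sort as a block (log2 fold change 1.32), with edgeR (1.44) and with DESeq2 (1.42). It was also called there without basal P3.5 replicate 6 (1.69) or any 1 of 4 luminal lactation libraries. Calls at other time points were lost without basal P14.5 replicate 5 (1.85), basal L10 replicate 6 (1.59), luminal Iw4 replicate 3 (1.54), basal Iw4 replicate 5 (1.5), basal M4 replicate 1 (1.55) or luminal M4 replicate 2 (1.47), each at its own time point.

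The number of these genes called higher in basal cells was 5 at W10, 4 at P3.5, 7 at P14.5, 6 at L3, 5 at L10, 6 at Id2, 5 at Iw4 and 5 at M4. Of all genes, 14.2%, 11.9%, 12.9%, 25.8%, 24.7%, 21.6%, 11.5% and 12.4% were called at these time points in either direction. With basal Id2 replicate 4 alone the Id2 count was 4 (*Igf1r*, *Igfbp4*, *Igfbp6* and *Igfbp7*), with 14.2% of all genes called. *Igfbp2*, *Igfbp4* and *Igfbp7* were called at all 7 time points outside Id2 with the spread shared by all groups. With the spread of the compared groups alone, calls were lost for *Igfbp7* at P14.5, for *Igfbp4* at L3 and L10 and for *Igfbp2* at L10. At Id2 *Igfbp4* and *Igfbp7* were called also with basal replicate 4 alone, whereas *Igfbp2* had 0.781, 20.3 and 55.3 CPM in the basal and 0.988, 1.5 and 4.48 in the luminal libraries and was not called by limma (2.10, SE 0.77, adjusted p = 0.032), but was by edgeR (3.44) and DESeq2 (3.51). Without basal Id2 replicate 2 its value was 3.53, which was called.

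**Figure D2:**
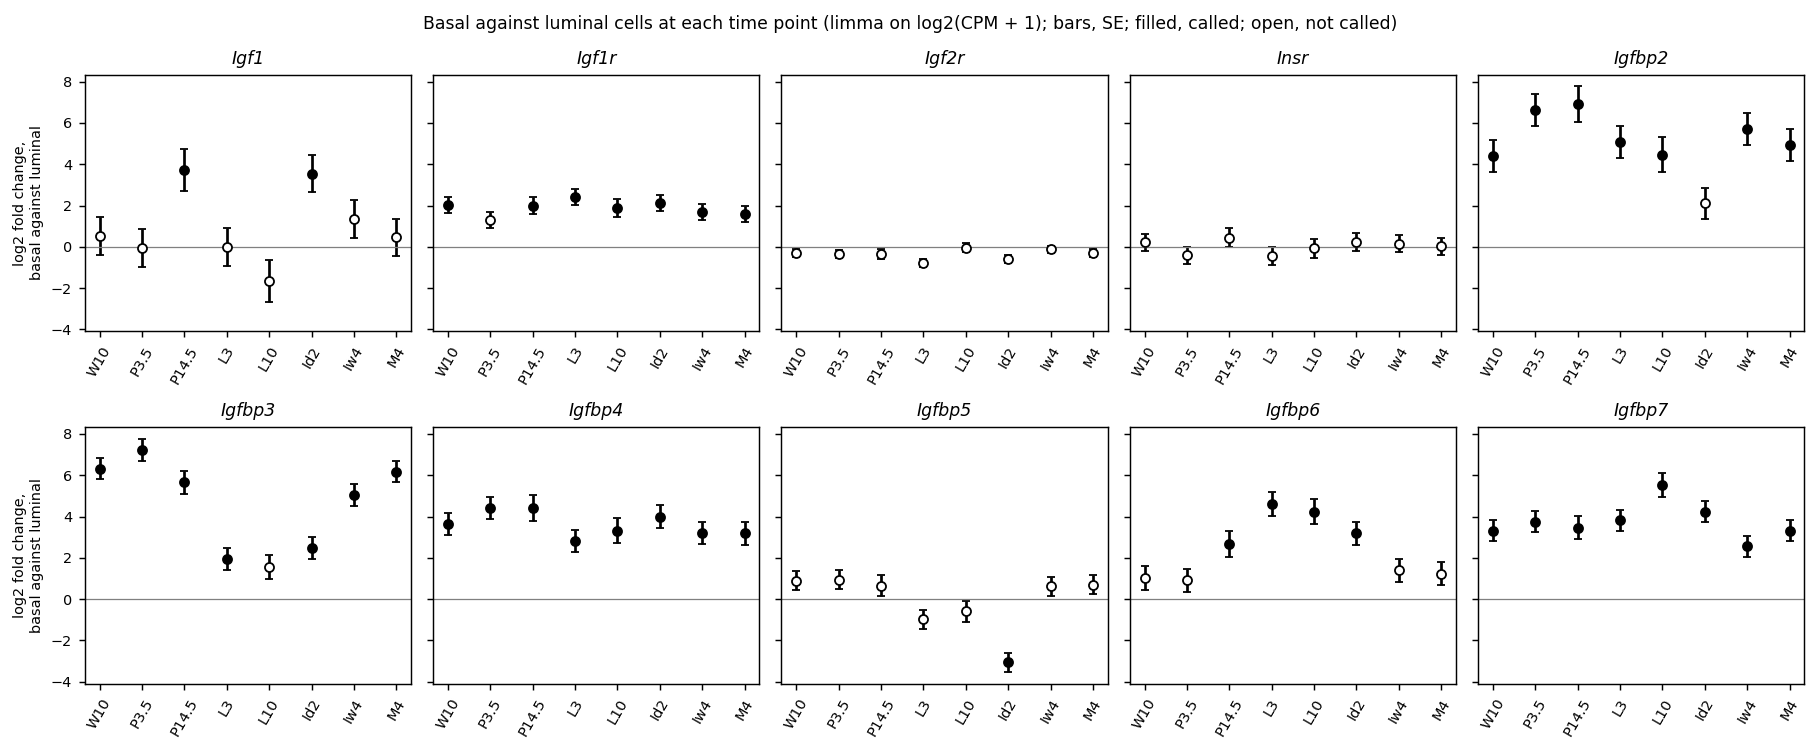
Basal minus luminal difference in log2(CPM + 1) (y, limma, bars SE) at each time point (x). Filled points were called. *Igfbp3* fell from 7.22 at P3.5 to 1.57 at L10, *Igfbp6* had 4.61 at L3 (7.58 with edgeR), a size that depends on the 1 CPM added to luminal values near 0, and *Igfbp5* was -3.07 at Id2 (-1.89 and not called with basal replicate 4 alone).

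*Igfbp3*, the main carrier of IGFs in blood, had the largest lactation difference between the cell types of the 10 genes. In basal cells it had 337, 194 and 283 CPM at W10, 451, 504 and 661 at P3.5, 69, 87.4 and 122 at L3, and 70 and 50.8 at L10. In luminal cells it had 2.62, 2.03 and 2.36 CPM at W10, 29.4, 36.8 and 10.5 at L3, and 7.72, 55.2 and 16.2 at L10. Lactating basal libraries were below, and lactating luminal libraries above, those of W10, and at L10 the ranges of the cell types overlapped.

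The lactation comparison sets the mean of L3 and L10 against the mean of W10 and M4. These groups were amplified in different batches, so amplification batch and lactation cannot be told apart. For *Igfbp3* the change was -1.99 (SE 0.39, adjusted p = 0.0001) in basal and 2.50 (SE 0.37, adjusted p = 1.8e-06) in luminal cells. Neither lactation range met the never-pregnant range of the same cell type. The change in basal minus that in luminal cells was -4.49 (SE 0.53, adjusted p = 1.7e-07). At L3 the basal excess of *Igfbp3* was 1.95 (SE 0.52, adjusted p = 0.0025), a call lost without luminal L3 replicate 6 (1.43), basal L3 replicate 6 (1.73), with edgeR (1.77) or with the spread of the compared groups alone. At L10 it was 1.57 (SE 0.58, adjusted p = 0.03) and not called, but was 2.31 and called without luminal L10 replicate 5.

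Basal markers in luminal libraries also rose in lactation, from 119.5 to 225 CPM in 6 never-pregnant libraries to 381 to 2573 CPM in 6 lactation libraries. In the 5 lactation sorts that gave both cell types, summed basal markers in the luminal library were 1.06% to 5.21% (median 1.77%) of those in the basal library. Luminal *Igfbp3* was 8.61% to 78.9% (median 42.1%) of basal *Igfbp3* in the same sorts, higher in each sort than the basal marker share. Across the 3 luminal L10 libraries *Igfbp3* (7.72, 55.2 and 16.2 CPM) and basal markers (381, 2573 and 981 CPM) had the same order. Across the 3 luminal L3 libraries they did too, with *Igfbp3* at 29.4, 36.8 and 10.5 CPM and basal markers at 749.8, 1408 and 465 CPM. In these sorts the *Igfbp4* range was 7.14% to 34.5%, for *Igfbp2* 1.16% to 7.97% and for *Igfbp7* 1.64% to 8.84%. The ranges of *Igfbp2* and *Igfbp7* met that of the basal markers. The part of basal cells in the luminal levels of *Igfbp2*, *Igfbp3*, *Igfbp4* and *Igfbp7* was not tested. Luminal *Igfbp3* in lactation was highest in L3 replicate 5 (36.8) and L10 replicate 5 (55.2). Of the luminal lactation libraries these also held the most endothelial markers (434 and 333 CPM). It was lowest in L10 replicate 4 (7.72), which held the fewest (41.0 CPM). The part of endothelial RNA in the luminal *Igfbp3* level was not tested.

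In lactation 6 of the 10 genes were called higher in luminal cells and none lower (13.2% of all genes were called), with a median of 1.54 over the 10 genes against -0.01 over all. In basal cells 5 were called higher and 2 lower (16.5% of all genes), with a median of 1.10 against -0.05. *Igfbp4*, *Igfbp7*, *Igfbp2* and *Igf2r* were called higher in both. *Igfbp4* is an inhibitor of IGF action that PAPP-A cuts. Its luminal libraries ranged from 2.28 to 6.18 CPM (median 3.52) before pregnancy and from 13.8 to 113 (median 28.9) in lactation, and its basal libraries from 31.8 to 62.5 (median 53.9) and from 209.7 to 416 (median 343). Neither cell type's ranges overlapped. The changes were 3.04 (SE 0.39) in luminal and 2.70 (SE 0.41) in basal cells. Luminal *Igfbp4* in lactation was highest in L3 replicate 5 (99.1) and L10 replicate 5 (113). Of the luminal lactation libraries these also held the most endothelial (434 and 333 CPM) and basal markers (1408 and 2573). The part of endothelial RNA in the luminal rise was not tested. Pericyte markers in the basal libraries went from 164 to 255 CPM before pregnancy to 2031 to 17387 in lactation, fibroblast markers from 221 to 641 to 757 to 5787, and endothelial markers from 20.8 to 134 to 485 to 1048. None of these ranges overlapped, and their part in the basal rises in lactation was not tested.

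*Igfbp7*, which binds IGFs weakly and is known from blood vessel walls and extracellular matrix, had the highest basal level per kilobase of the 10 genes at L10, with a mean of 2234 CPM per kb against 516 for *Igfbp5*. Its basal libraries had 112, 129 and 148 CPM at W10, 473, 1062 and 1474 at L3, and 2593 and 2809 at L10. The change in basal cells was 3.74 (SE 0.38, adjusted p = 8.1e-10), and in luminal cells, where the median rose from 10.9 to 54.7 CPM, 2.38 (SE 0.36). Endothelial markers in the luminal libraries went from 4.26 to 32.0 CPM before pregnancy to 41.0 to 434 in lactation, and were highest in L3 replicate 5 (434) and L10 replicate 5 (333), the luminal lactation libraries highest in *Igfbp7* (93.6 and 96.5). The difference between the cell types was 1.36 (SE 0.52, adjusted p = 0.063) and not called. The summed CPM of 8 pericyte markers moved with it: 2031, 4622 and 8078 in basal L3, 9981 and 17387 in basal L10, and 164 to 255 in the 6 never-pregnant basal libraries. *Rgs5* was the most abundant of these markers in each basal lactation library, and none was at 0. In the annotation 7.03% of *Igfbp7* exon bases lie opposite *Polr2b*, and the kit does not mark strand. The part of pericyte and endothelial RNA in either rise of *Igfbp7* was not tested.

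*Igfbp6*, which prefers IGF2, was nearly absent from luminal cells. Of 24 luminal libraries 19 held fewer than 3 reads, a floor of 0.191 to 1.052 CPM depending on the luminal library. Its basal libraries had 0.665, 0.513 and 2.3 CPM at W10, 24, 37 and 23.6 at L3, and 35.1 and 37 at L10. All 5 lactating basal libraries were above the 6 never-pregnant ones. The change in basal cells was 3.84 (SE 0.42, adjusted p = 4e-09), and pericyte markers moved with it as given for *Igfbp7*. The change in basal minus that in luminal cells was 3.30 (SE 0.57, adjusted p = 5.6e-05), but luminal levels lay at the floor, and on recovered reads edgeR gave 0.87 and DESeq2 1.14, neither of them called. At P14.5 the basal libraries had 18.2 and 1.32 CPM, and the basal excess there (2.67, SE 0.62, adjusted p = 0.0015) was lost without basal replicate 3 (1.14) or with the spread of the compared groups alone, as were the calls at L10 and Id2 in the latter setting.

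*Igfbp2*, an IGF carrier, had 61.6, 36.8 and 39.9 CPM in basal W10, 665, 433 and 181 in L3, and 182 and 159 in L10. All 5 lactation libraries were above the 6 never-pregnant basal libraries, which reached 109 CPM. The change was 2.08 (SE 0.58, adjusted p = 0.0047) in basal and 1.98 (SE 0.55, adjusted p = 0.0048) in luminal cells. Both sat near the threshold: the basal call was lost without W10 replicate 5 or 6, L3 replicate 4 or 5, either L10 library or M4 replicate 6 (1.87 to 2.13), and the luminal call without W10 replicate 5 or 6, L3 replicate 4 or 5, L10 replicate 5 or 6 or M4 replicate 6 (1.71 to 1.97) or with the spread of the compared groups alone. Basal P3.5 and P14.5 already held 132 to 318 CPM.

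*Igf2r*, which takes up IGF2 and lysosomal enzymes, rose in both cell types. Its 6 luminal libraries ranged from 129 to 186 CPM before pregnancy and from 227 to 402 in lactation, and its basal libraries from 105 to 160.1 and from 199 to 344. The ranges did not overlap in either cell type. The change was 1.10 (SE 0.14, adjusted p = 1.1e-07) in luminal and 1.00 (SE 0.15, adjusted p = 1.1e-06) in basal cells. The basal value sits at the fold required, and it fell just below it with the sort as a block (0.98), with edgeR (0.95) and without basal W10 replicate 3 (0.96), L3 replicate 6 (0.98), L10 replicate 6 (0.93) or M4 replicate 1 (0.99) or 6. Leukocyte and macrophage markers in the luminal libraries went from 307 to 539 CPM before pregnancy to 897 to 1861 in lactation. *Cd14* was the most abundant of them in each, and their part in the luminal rise was not tested.

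*Igfbp5* fell in basal cells in lactation and was not called in luminal cells (-0.15, adjusted p = 0.77). The basal libraries ranged from 4279 to 12396 CPM before pregnancy (median 7429.9) and from 1514 to 3703 in lactation (median 1939), without overlap. The luminal ranges were 2981 to 9603 and 1034 to 6061 CPM and overlapped. The basal change was -1.73 (SE 0.35, adjusted p = 0.00014). The basal minus luminal change was -1.58 (SE 0.47, adjusted p = 0.015), not called, and called with the sort as a block (adjusted p = 0.0074), with edgeR (-1.76), and without luminal L3 replicate 6 (-2.01), luminal W10 replicate 6 (-1.76) or basal Id2 replicate 4 (-1.58). That luminal L3 library had 1034 CPM against 6061 and 6056 in the other two. Without it the basal excess at L3, -0.98 with all libraries, was -1.83 and called.

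*Igf1* rose in luminal cells in lactation, from 2.12 to 12.0 CPM in the 6 never-pregnant libraries to 22.4, 21.7 and 112 at L3 and 7.18, 89.8 and 97.0 at L10. The change was 2.54 (SE 0.64, adjusted p = 0.0023), and the call was lost without L3 replicate 6 (2.15), L10 replicate 5 (2.26) or L10 replicate 6 (2.23) and with the spread of the compared groups alone. These 3 libraries also held the most fibroblast markers of the luminal lactation libraries, at 289, 529.7 and 818 CPM against 27.1 to 69.9 in the other 3. L3 replicates 4 and 5, at 31.7 and 69.9 CPM of fibroblast markers, were still above the never-pregnant range of *Igf1*. The part of fibroblasts in the luminal *Igf1* level was not tested. *Insr* and *Igf1r* were not called in lactation in either cell type. For the change between cell types 2 of the 10 genes were called, *Igfbp3* and *Igfbp6*, with 10.3% of all genes.

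**Figure D3:**
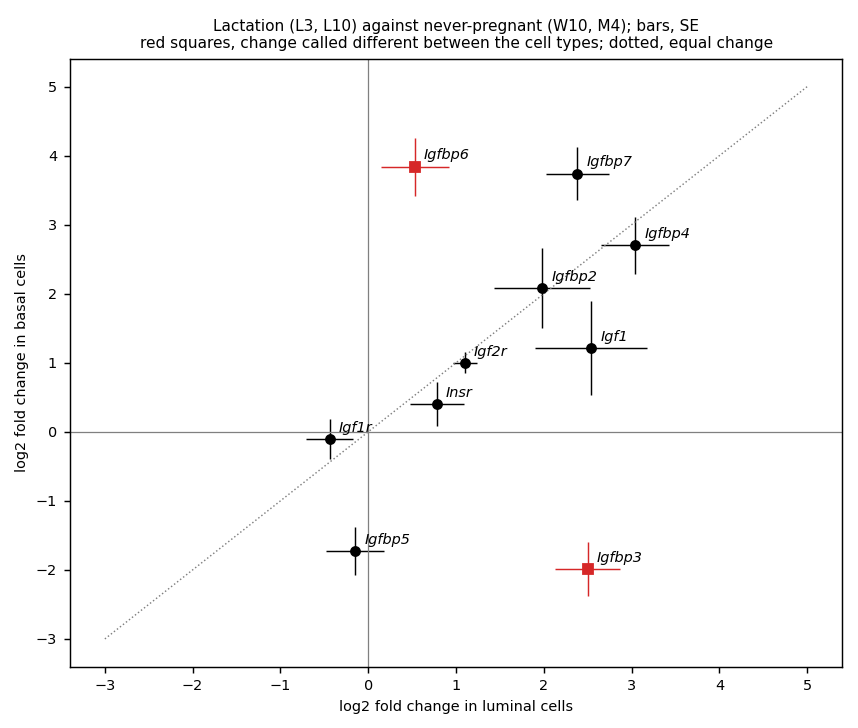
Log2 fold change of lactation (L3 and L10) against never-pregnant (W10 and M4) in luminal (x) and basal (y) cells with SE bars, 1 point per gene and a dotted line at equal change. *Igfbp3* and *Igfbp6* (red squares) were called different between the cell types, with 2.50 and -1.99 for *Igfbp3*.

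From W10 to P3.5, groups that also differ in amplification batch, limma called 0 of the 10 genes in luminal (1.82% of all genes called) and 0 in basal cells (6.76%). At an unadjusted p under 0.05 there were 1 and 3, edgeR called 0 in both, and DESeq2 called *Igfbp5* in both. *Igfbp5* had log2 fold changes of -1.54 in luminal (SE 0.46, adjusted p = 0.037) and -1.51 in basal cells (SE 0.46, adjusted p = 0.022). Luminal *Igfbp5* went from 4946, 4178 and 9603 CPM at W10 to 1890.4, 2089 and 2042 at P3.5, without overlap, and both values were called without luminal L3 replicate 6. Basal *Insr* had -1.25 (SE 0.43, adjusted p = 0.045) and was called without basal Id2 replicate 2, which changes only the shared spread. With the spread of the compared groups alone, basal *Insr* and *Igfbp2* (1.90) were called.

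From P3.5 to P14.5, within 1 amplification batch but in sequencing lanes 5 and 6, *Igf1* was called in basal cells (3.64% of all genes called). In luminal cells 0 of the 10 were called (1.52%), where 2 had an unadjusted p under 0.05 and edgeR and DESeq2 each called 1, *Igfbp7*. Basal *Igf1* went from 1.75, 1.12 and 8.3 CPM to 227 and 47.9. The change was 4.80 (SE 1.02, adjusted p = 0.0022), lost without P14.5 replicate 3 (3.69) or P3.5 replicate 2 (4.57) or 4 (4.38) and with the spread of the compared groups alone. The same P14.5 libraries held 11906 and 5993 CPM of fibroblast markers, against 248 to 706 at P3.5, with *Col3a1* and *Col1a1* the most abundant, and their part in the *Igf1* level was not tested. Basal against luminal at P14.5 *Igf1* was 3.71 (SE 1.02, adjusted p = 0.0067), and this call was lost without basal replicate 3 (2.60) or any 1 of the 3 luminal libraries (3.55 to 3.97). Luminal *Igf1* had 2.03 to 4.64 and 5.41 to 10.5 CPM. The basal minus luminal change was 3.77 (SE 1.36, adjusted p = 0.2), and limma called 0 of the 10 genes for it (0.193% of all genes), with 2 at an unadjusted p under 0.05 and 0 called by edgeR and by DESeq2. Luminal *Igfbp7*, at 102, 9.24 and 22.1 CPM, was not called by limma (1.98, SE 0.51, adjusted p = 0.018), but was without luminal P14.5 replicate 3 (2.74). Endothelial markers in these libraries were at 251, 18.7 and 52.9 CPM, in the same order, against 1.60 to 15.1 at luminal P3.5, and their part was not tested. Basal *Igfbp6* was not called (1.83, adjusted p = 0.055), but was without P14.5 replicate 5 (3.35). Basal *Insr* (1.03) was called without basal Id2 replicate 2, which changes only the shared spread.

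At day 2 of involution *Igfbp5* reached its highest luminal level. The luminal Id2 libraries had 13076, 12598 and 16141 CPM. On the deposited scale this was above every other luminal library, of which the highest was 9603. The basal Id2 libraries had 1379, 3739 and 877 CPM, all below the luminal ones. Basal against luminal at Id2 was -3.07 (SE 0.46, adjusted p = 2.1e-06), and with basal replicate 4 alone -1.89 (SE 0.59, adjusted p = 0.017), which was not called. The call was also lost with the spread of the compared groups alone. Luminal Id2 against L10 was 1.60 (SE 0.46, adjusted p = 0.018), without overlap of the libraries (4909, 4247 and 4554 CPM at L10), which missed the threshold with limma and was called by DESeq2 (1.68) and without luminal L3 replicate 6 or basal Id2 replicate 4, whose removal changes only the shared spread. Amplification batch and involution cannot be told apart here. Against W10, in the same batch, luminal *Igfbp5* was not called (1.25, SE 0.46, adjusted p = 0.049).

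Luminal *Igf2r* was highest at Id2 too, with 678, 662 and 514 CPM against 227, 402 and 356 at L10 and 186, 183 and 183 at W10. The difference was 1.73 (SE 0.19, adjusted p = 3.2e-08) from W10 and 0.94 (SE 0.19, adjusted p = 0.0012) from L10, just below the fold required, which it passed without L10 replicate 5 (1.11), L10 replicate 6 (1.02) or Id2 replicate 6 (1.07). Leukocyte and macrophage markers in luminal Id2 libraries summed to 3031 to 4492 CPM against 897 to 1861 in luminal lactation libraries, of which *Cd14* alone made 2408 to 4338 CPM at Id2. The gate was set to remove CD45+ and CD11b+ cells, and the part of leukocyte RNA in the *Igf2r* level was not tested.

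From L10 to Id2, luminal *Igfbp3* fell (-2.17, SE 0.52, adjusted p = 0.0048), from 7.72, 55.2 and 16.2 to 2.96, 5.8 and 2.44 CPM, the only one of the 10 genes called in luminal cells (4.56% of all genes). The call was lost without L10 replicate 5 (-1.44) or 6 (-2.29) or Id2 replicate 2 (-2.07) or 6 (-1.97), and with the spread of the compared groups alone. The luminal libraries of these time points did not overlap for *Igfbp3*. Basal markers in the same luminal libraries went from 381, 2573 and 981 CPM at L10 to 132, 238 and 170.1 at Id2, and their part in this fall was not tested. In basal cells *Igf1* was called higher (5.51, SE 1.02, adjusted p = 0.00012) and *Igfbp2* lower (-3.73, SE 0.86, adjusted p = 0.0015), with 13.3% of all genes called. The *Igf1* call was lost without L10 replicate 6 (4.11), and the *Igfbp2* call without L10 replicate 5 (-3.63) or 6 (-3.83) or Id2 replicate 2 (-2.30) and with edgeR (-2.67). Both were lost with the spread of the compared groups alone. Without Id2 replicate 6 *Igfbp6* was called too (-2.28). With basal Id2 replicate 4 alone *Igf1* was 4.07 (adjusted p = 0.052) and *Igfbp2* -3.0 (adjusted p = 0.035), and none of the 10 genes was called (3.28% of all genes).

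*Igf1* in the basal Id2 libraries was 555, 224 and 1788 CPM, and the other 19 basal libraries reached 227 at most. The fibroblast markers of these 3 libraries summed to 3053, 10239 and 72328 CPM, and the highest *Igf1* was in the library highest in fibroblast markers. Replicate 2, the lowest in fibroblast markers, had more *Igf1* than replicate 4. Replicate 4, the library with basal markers in the range of the other basal libraries, lay near the top of their range for *Igf1*. It had 224 CPM against a median of 15.3 in those libraries, of which only P14.5 replicate 3 (227) was higher. *Igf1* in luminal Id2 was 17.0, 52.6 and 142 CPM beside 224, 489.8 and 5230.2 CPM of fibroblast markers, in the same order, and the part of fibroblasts was not tested. Basal against luminal *Igf1* at Id2 was 3.55 (SE 0.91, adjusted p = 0.0022), lost without luminal replicate 2 (2.79) or basal replicate 6 (2.77) or with the spread of the compared groups alone and, with basal replicate 4 alone, 2.12 (adjusted p = 0.25). For the basal minus luminal change from L10, limma called 0 of the 10 genes (3.73% of all genes), with 3 at an unadjusted p under 0.05, 0 called by edgeR and 2 by DESeq2. With the sort as a block it was called for *Igf1* (5.41, adjusted p = 0.0025) and *Igfbp5* (-2.49, adjusted p = 0.0078), and with basal replicate 4 alone *Igf1* was 3.77 (adjusted p = 0.22) and *Igfbp5* -1.30 (adjusted p = 0.41). *Igf1* was also called without any 1 of 6 libraries (5.20 to 6.59), and *Igfbp5* without luminal L3 replicate 6 (-2.48) or basal Id2 replicate 4 (-3.07).

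*Insr* in basal Id2 was 1578, 198 and 127 CPM. The single high library was replicate 2, the one high in endothelial markers, and the other basal libraries ranged from 54.8 to 232 CPM. The sort gate was set to remove CD31+ endothelial cells, and the part of endothelial RNA in this value was not tested. edgeR (1.85) and DESeq2 (1.99) called *Insr* higher in basal Id2 than in W10, where limma (0.99) did not.

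Id2 and W10 share an amplification batch but were run in sequencing lanes 3 and 2. Lane and time point cannot be told apart here. Between them 4 of the 10 genes were called higher in luminal cells (10.4% of all genes): *Igf1* (3.40), *Igfbp4* (2.45), *Igfbp7* (2.42) and *Igf2r*. Endothelial markers in the luminal libraries were at 14.6 to 32.0 CPM at W10 and 79.7 to 257 at Id2, and their part was not tested. The *Igf1* call was lost without any 1 of the 3 W10 libraries or Id2 replicate 4 or 6 (2.66 to 3.61), and the *Igfbp4* call without Id2 replicate 6 (2.16). In basal cells 7 were called (17.4% of all genes), 5 higher (*Igf1*, *Igfbp7*, *Igfbp4*, *Igfbp6* and *Igf2r*) and 2 lower (*Igfbp3* and *Igfbp5*). With basal Id2 replicate 4 alone the 4 called (9.31% of all genes) were *Igf1* (5.00), *Igfbp7* (3.55), *Igf2r* (1.37) and *Igfbp3* (-4.08), while *Igfbp4* (2.09), *Igfbp6* (2.29) and *Igfbp5* (-1.54) were not. With the spread of the compared groups alone, luminal *Igf1* and *Igfbp4* and basal *Igf2r*, *Igfbp5* and *Igfbp6* were not called. The *Igfbp6* call was also lost without Id2 replicate 6 (1.91), while *Insr* (1.70) and *Igfbp2* (-2.90) were then called. Replicate 4 held 11923 CPM of pericyte markers against 164 to 255 in the 6 never-pregnant basal libraries, and 10239 of fibroblast markers against 221 to 641, and their part in these values was not tested. *Igfbp3*, at 50.4, 14.7 and 18.6 CPM in the basal Id2 libraries, was below every basal library of the other time points, the nearest being 50.8 CPM at L10.

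**Figure D4:**
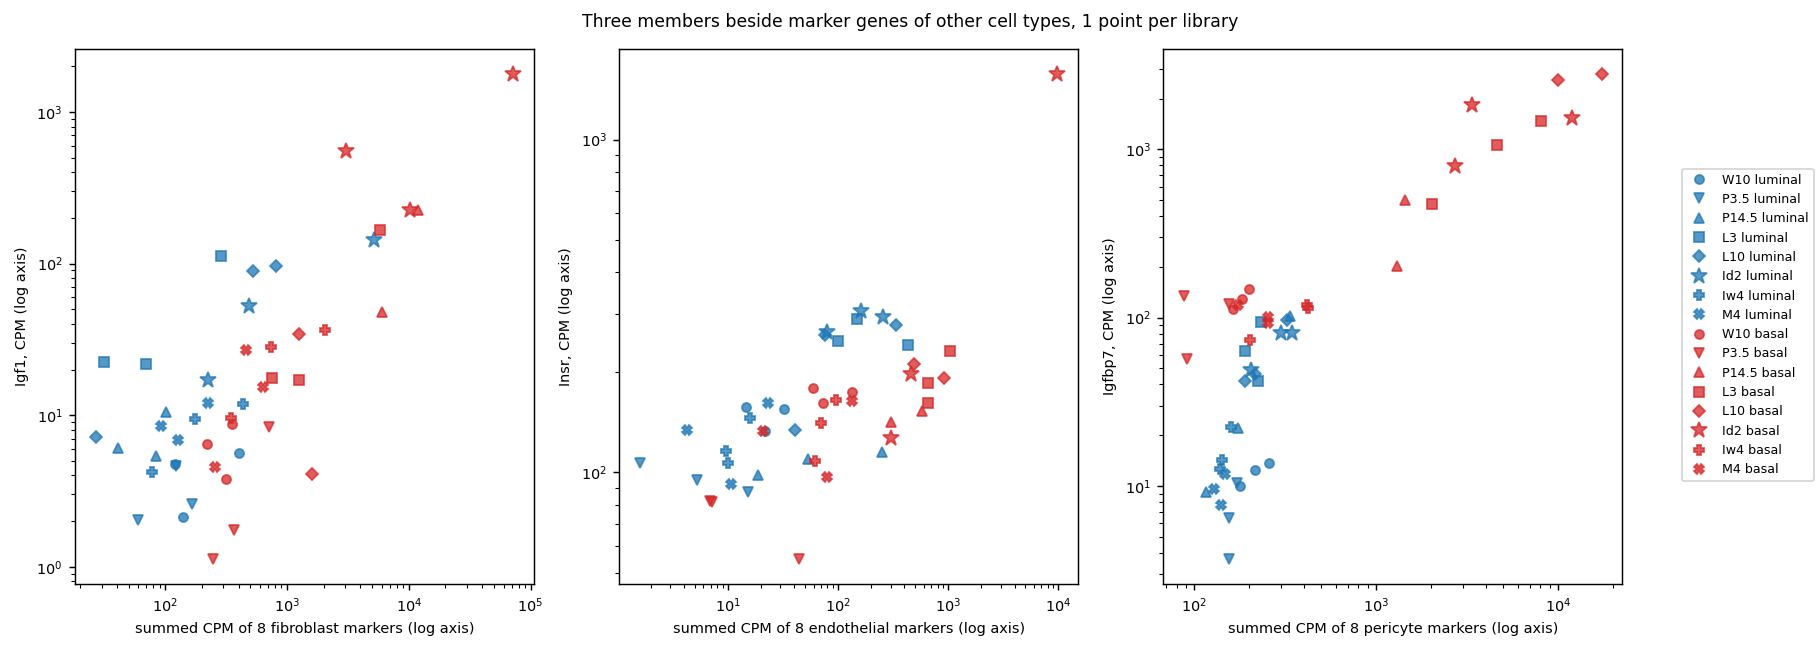
CPM of *Igf1*, *Insr* and *Igfbp7* (y, log axis) against the summed CPM of 8 fibroblast, endothelial or pericyte markers (x, log axis), 1 point per library, coloured by cell type and shaped by time point. The Id2 basal libraries with 72328 CPM of fibroblast and 9808 CPM of endothelial markers had the highest *Igf1* and *Insr*.

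At week 4 of involution limma called 0 of the 10 genes against the age-matched M4 glands in luminal cells and 0 in basal cells, with 0 and 1 at an unadjusted p under 0.05 and 0 by edgeR and by DESeq2. Over all genes it called 0 (0%) in luminal and 1 (0.00586%) in basal cells, with 392 and 322 at an unadjusted p under 0.05. edgeR called 0 of all genes in both, and DESeq2 called 2 in luminal and 0 in basal cells. Iw4 and M4 sorts shared amplification batches in pairs, which the limma fit did not use. Basal *Igfbp3* had 94.5, 115 and 202 CPM at Iw4 and 307, 378 and 307 at M4, which did not overlap (-1.33, SE 0.52, adjusted p = 1). Basal *Igfbp7* had 73.3, 119 and 114 CPM and *Igfbp6* 0.891, 4.3 and 2.13 CPM at Iw4, below all 5 basal lactation libraries.

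Over all 8 time points, 6 of the 10 genes varied in luminal cells (31.5% of all genes) and 9 in basal cells (42.7%). The luminal 6 were *Igf1*, *Igf2r*, *Igfbp3*, *Igfbp4*, *Igfbp5* and *Igfbp7*. With basal Id2 replicate 4 alone the same 9 were called in basal cells, with 37.0% of all genes. In basal cells *Igf1* had the largest difference between time points of the 10 genes, at 7.32 on the log2 scale and 5.89 with replicate 4 alone.

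The genes with the most similar profile to each over the 16 condition means of log2(CPM + 1), among 10526 named genes with a mean of at least 5 CPM, are given as a description. *Igfbp4* was closest to *Igfbp7* (Pearson r = 0.968), the secreted inhibitor *Pi15* (0.967) and the matrix proteoglycan *Bgn* (0.967). *Igfbp7* was closest to *Sparcl1* (0.985), the pericyte proteoglycan *Cspg4* (0.982) and *Pde3a* (0.980), and *Igfbp6* to *Olfr558* (0.986), the muscle filament *Des* (0.985) and *Hspb7* (0.985). *Cspg4* and *Des* are also in the list of pericyte markers. *Igfbp2* was closest to *Matn2* (0.983), the smooth muscle tropomyosin *Tpm2* (0.974) and *Phyhip* (0.972), and *Igfbp3* to *Tspan18* (0.967), *Moxd1* (0.967) and *Wnt10a* (0.964), a Wnt ligand. *Igf1r* was closest to *Plxdc2* (0.980), *Cc2d2a* (0.976) and *Kif3c* (0.969), and *Igf2r* to the proton pump subunit *Atp6v0a1* (0.969), *Nfe2l1* (0.956) and *Coro1b* (0.949). *Insr* was closest to *Gpr146* (0.939), *Tnfaip3* (0.937) and *Ace* (0.932), and *Igf1* to the matrix gene *Smoc2* (0.938), *Emilin2* (0.934) and *Akr1c14* (0.925). *Igfbp5* had no close match, with *Tnfrsf21* (0.817), *Zbtb37* (0.801) and *Efna5* (0.797) leading.

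The rest of the axis was read from a list of 41 genes in 8 roles, of which 36 were in the table. Averaged over time, 9 of the 36 were called higher and 4 lower in basal cells, with a median of 0.13, where 13.6% of all genes were called higher and 7.35% lower. With basal Id2 replicate 4 alone these 13 were called again, with values from -2.85 (*Igfals*) to 4.10 (*Lrp1*), and *Irs2* was called too (1.06). The ligand *Igf2* was higher in basal cells (2.09, SE 0.27). Of 6 proteases of binding proteins and their inhibitors, 4 were higher in basal cells, led by the serine protease *Htra1* (3.85) and the metalloprotease *Adam12* (3.49), and the PAPP-A inhibitor *Stc2* was higher in luminal cells (-1.62). The carrier subunit *Igfals* was higher in luminal cells (-2.95), and *Lrp1*, a scavenger receptor proposed to bind IGFBP3, in basal cells (4.07). Of 8 adaptors, *Irs1* (1.08), the docking protein of both receptors, and *Grb14* (1.05) were higher in basal cells, whereas *Irs2* (0.91) and *Grb10* (0.14) were not called. Of 13 relay genes, *Pik3cb* (-1.27) was higher in luminal cells, and of 3 RNA-binding genes *Igf2bp2* (-1.26) was higher in luminal cells. Neither of the 2 growth hormone genes was called.

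*Pappa*, the protease that frees IGF from IGFBP4 and IGFBP5, fell in basal cells in lactation, where *Igfbp4* rose. Its basal libraries ranged from 196 to 426 CPM before pregnancy (median 236) and from 5.79 to 35.1 in lactation (median 10.3). The ranges did not overlap. The change was -4.19 (SE 0.51, adjusted p = 3.5e-08), and the basal minus luminal change was -5.33 (SE 0.70, adjusted p = 7.9e-07). *Stc1*, an inhibitor of PAPP-A, went the other way in basal cells, from 6.73 to 16.7 CPM to 57.2 to 125 (2.74, SE 0.47). *Stc2*, a related inhibitor, fell in luminal cells from 76.0 to 661 CPM to 14.6 to 46.6 (-3.71, SE 0.58).

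*Igf2* was higher in lactation than in never-pregnant glands in both cell types. limma also called it higher at P14.5 than at P3.5 in both. Its basal libraries went from 3.46 to 30.8 CPM to 232 to 1789.8, a change of 6.11 (SE 0.56, adjusted p = 9.9e-11) in the libraries where pericyte, fibroblast and endothelial markers were also higher, and its luminal libraries from 0.687 to 6.8 CPM to 12.6 to 114 (3.70, SE 0.53). Neither cell type's ranges overlapped. Among luminal lactation libraries *Igf2* was highest in L3 replicate 5 (114) and L10 replicate 5 (103). These had the most endothelial (434 and 333) and basal markers (1408 and 2573). It was lowest in L10 replicate 4 (12.6), the one with the fewest (41.0 and 381). At P14.5 luminal *Igf2* was at 82.5, 47.8 and 163 CPM and basal *Igf2* at 85.5 and 79.3. The luminal P14.5 libraries, in the same order, held 251, 18.7 and 52.9 CPM of endothelial and 366, 345 and 229 of basal markers. The part of these cells in the *Igf2* level was not tested. In the annotation 62.8% of *Igf2* exon bases are shared with *Gm49394* on the same strand, so reads within the shared bases cannot be told apart.

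*Grb10*, an adaptor that restrains both receptors, changed its cell type contrast over time. In basal cells it had 6.65, 9.23 and 4.34 CPM at W10, 3.17, 3.43 and 6.13 at P3.5, 72.3 and 39.7 at P14.5, 26.1, 53.3 and 107 at L3, 95.4 and 121 at L10, and 213, 129 and 287 at Id2. In luminal cells it stayed between 8.56 and 42.7 CPM in all 24 libraries. It was called higher in luminal cells at W10 (-1.74) and P3.5 (-2.99) and higher in basal cells at L10 (1.94, adjusted p = 0.00091). It was not called at P14.5 (1.25, adjusted p = 0.044) or L3 (1.25, adjusted p = 0.014). At Id2 it was called higher in basal cells (2.57), but not with basal replicate 4 alone (1.95, adjusted p = 0.011). The basal minus luminal change from P3.5 to P14.5, within 1 batch, was 4.24 (SE 0.61, adjusted p = 0.00017). In the same basal libraries pericyte markers went from 88.0 to 155 CPM at P3.5 to 1444 and 1296 at P14.5, endothelial markers from 6.93 to 44.2 to 575 and 303, and fibroblast markers as given for *Igf1*. Their part in the *Grb10* level was not tested.

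In lactation 4 of the 36 listed genes were called higher and 2 lower in luminal cells, with a median of 0.18 against -0.01 over all genes, of which 13.2% were called. In basal cells 6 were higher and 1 lower, with a median of 0.22, beside 16.5% of all genes. Both counts lie near these shares. In luminal cells, beside *Igf2* and *Stc2*, *Igfals* (2.32), the regulatory subunit *Pik3r1* (1.18) and the kinase *Akt1* (1.18) rose and *Grb14* fell by 2.02. In basal cells *Grb10* (3.35) and *Htra1* (2.16) were among those that rose beside *Igf2* and *Stc1*. *Irs1* had 0.39 and 0.36, and *Irs2* 0.69 and 0.76, in luminal and basal cells, and neither was called. *Irs1* shares 30.9% of its exon bases with a gene on the opposite strand.

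**Figure D5:**
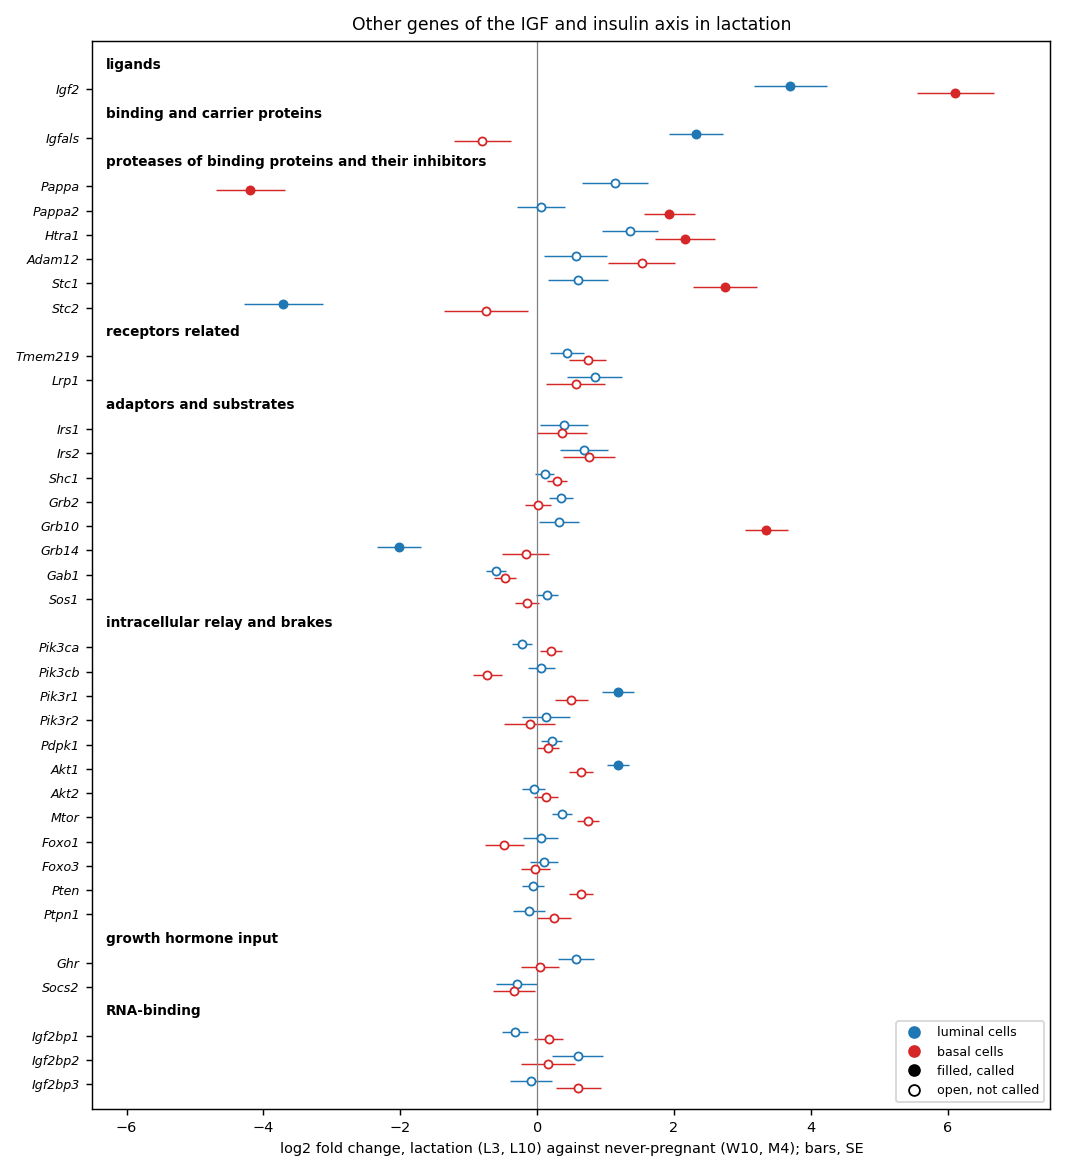
Log2 fold change of lactation against never-pregnant (x, SE bars) for 35 listed genes of the axis, by role (y), in luminal (blue) and basal (red) cells, with filled points called. *Igf2* moved furthest up in both cell types (3.70 and 6.11), *Pappa* furthest down in basal cells (-4.19).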

How the data were processed

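Per the labels and methods, RNA of each sort was amplified (Ovation RNA-Seq V2) and sequenced on an Illumina HiSeq. The authors aligned reads with GSNAP to NCBI Build 37.1 (mm9), counted them per Ensembl gene with htseq-count and scaled them with edgeR. The deposited values are this scaled signal in CPM. The authors also dropped low genes and genes with very many reads and low variability. They left out 1 outlying basal P14.5 library, not analysed here. The kit does not mark strand. Every value was a whole multiple of 1 read (100.0% within 0.01 of a read), which gave 4398806 to 20023054 reads per library and a floor of 3 reads at 0.17 to 1.052 CPM.

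limma (3.58.1, R 4.3.3) with a mean-variance trend was fitted to log2(CPM + 1) over 16 condition means of 46 libraries and 17078 genes. edgeR (4.0.16), which called 4861 genes for basal against luminal where limma called 3580, and DESeq2 (1.42.0) on recovered reads, the sort as a block and other settings were alternatives. Luminal and basal libraries of 1 sort come from the same pooled mice. Their deviations correlated with a median of 0.31 over 22 pairs (21 positive). Libraries are separate sorts, with L3 and L10 sharing dates for replicates 4 and 5. The fit was tested on simulated data. Named genes were the 10 genes, called genes of the axis list (at most 2 per role and direction) with *Igf2*, *Grb10*, *Irs1* and *Irs2*, and the 3 most similar profiles per gene. The genes and lists were chosen with earlier results of these data known. Symbols were matched for 16897 gene IDs. Of 8 adipocyte markers 4 were in the table, and that list was not read further. Its summed CPM was 489.9 to 949.5 in basal lactation and 27.5 to 87.5 in never-pregnant basal libraries. The values of 1 gene of the axis list are not reported here.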

Additional observations from a re-analysis of the deposited data

Results flagged for a closer look

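The lactation change of *Igfbp3* differed between the cell types by the interaction term, with -4.49 on the log2 scale for basal minus luminal. The change of *Igfbp6* differed by 3.3 in the same test, in which luminal libraries lay at the floor, but it was not called with a pseudocount of 0.1 (3.07), nor on recovered reads by edgeR (0.87) or DESeq2 (1.14).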

How the results depend on the processing

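Each value here is the number of the 10 genes called. Estimating the spread from the compared groups alone gave 3 at L3, 1 at L10 and 2 at Id2 for basal against luminal, 2 for P3.5 against W10 in basal cells, 0 for P14.5 against P3.5 in basal cells, 0 for Id2 against L10 in both cell types, and 2 (luminal) and 4 (basal) for Id2 against W10. Basal Id2 replicate 4 alone, a setting chosen after seeing the data that assumes this library varies like the other groups, gave 4 for basal against luminal at Id2, 0 against L10 and 4 against W10. It also turned the averaged basal against luminal value of *Igfbp5* to 0.04 from -0.10. DESeq2 gave 1 for P3.5 against W10 in each cell type, 1 for P14.5 against P3.5 in luminal cells, and 2 for Id2 against L10 in luminal cells and for its difference between cell types. edgeR gave 1 for P14.5 against P3.5 in luminal cells and 1 for Id2 against L10 in basal cells. Median-ratio rescaling gave 2 for Id2 against L10 in luminal cells, and a pseudocount of 0.1 gave 1 for the lactation difference between cell types.

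With the sort as a replicate block, the difference between cell types for Id2 against L10 had 2 genes called. This pairing also lost basal *Igf2r* in lactation (0.98), and gained *Igf1r* at P3.5, the *Igfbp5* lactation difference between cell types and luminal *Insr* for variation over time.

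Leaving out 1 library gave 0 to 1 for P3.5 against W10 in luminal and in basal cells, 0 to 1 for P14.5 against P3.5 in luminal and 0 to 2 in basal cells, 0 to 2 for Id2 against L10 in luminal and 0 to 3 in basal cells, 2 to 4 for Id2 against W10 in luminal cells and 0 to 2 for the difference between cell types from L10 to Id2. Variation over time was not run in DESeq2. Depth limits luminal *Igfbp6*, at the floor in most libraries. Why these calls changed was not tested.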
